A study of Mus musculus with 2 samples.

Results

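The dendritic cells of the mouse aorta described here are 281 barcodes, 93 of them in a Kif13b-/- library and 188 in a wild-type library, out of 7766 and 21126 deposited barcodes. They were chosen by their own counts, with values of these data already known. A barcode (the sequence that marks 1 droplet) was kept when it held at least 2000 UMIs (molecular tags, each counting 1 transcript molecule), at most 20% mitochondrial UMIs, and at least 3 UMIs of Flt3, Cd209a, Xcr1, Clec9a, Ccr7, Fscn1 and Zbtb46 together. It also had to reach 5000 CPM (counts per 1000000 UMIs of the barcode) over the MHC class II genes Cd74, H2-Aa, H2-Ab1 and H2-Eb1. Macrophages, smooth muscle cells and B cells were kept out by upper limits of 1000 CPM over C1qa, C1qb and C1qc, 3000 CPM over Acta2 and Tagln, and fewer than 3 UMIs of Cd79a, Cd79b and Ms4a1. The 93 and 188 barcodes made up 1.59% (95% interval 1.28 to 1.94) of the 5859 Kif13b-/- barcodes and 1.71% (1.48 to 1.97) of the 10998 wild-type barcodes that passed the depth and mitochondrial limits.

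The study set the aorta of Kif13b-/- mice, labelled for a targeted gene of the kinesin family of microtubule motors, beside that of wild-type mice by 10x Genomics 3' single-cell RNA sequencing. The title of the Kif13b-/- library and its genotype entry differ, since the entry speaks of a knock down. Strain, age, sex, diet and the number of mice per library were not found in the labels. There is 1 library for each genotype, so no test over mice was possible, and what differs between the libraries cannot be told apart from what differs between the genotypes. Every 95% interval below is an exact one and covers counting error only.

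Dendritic cells take up antigen and show its peptides to T cells on MHC class II molecules, and in the healthy aorta they lie mainly in the intima and adventitia. Conventional dendritic cells depend on the growth factor receptor FLT3 and divide into cDC1, which carry XCR1 and CLEC9A, take up dead cell material and present it on MHC class I, and cDC2, which carry CD209A and SIRPA and mainly prime CD4+ T cells. Both can mature into cells that gain the chemokine receptor CCR7, which leads them through lymph vessels to lymph nodes.

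The gated barcodes were deep, and deeper in the Kif13b-/- library, with a median of 14242 UMIs (2215 to 33820) against 9271.5 UMIs (2079 to 31638) in the wild-type library. They held 1349073 and 1908984 UMIs in all, medians of 3379 and 2698 genes, and medians of 2.24% and 1.75% mitochondrial UMIs. The libraries shared 52 barcode sequences, none of them among the gated barcodes (0 shared). More barcodes were deposited for each library than the 6000 cells that the protocol states were loaded, so some barcodes are not single whole cells. Barcodes with 3000 CPM or more of Dcn, Lum, Col1a1, Col1a2 and Col3a1, genes of fibroblasts, made up 17 of 93 (18.3%) and 20 of 188 (10.6%) of the gate, a limit set after the data were seen. They are called stroma-high here, were shallow (medians of 4703 and 3780 UMIs) and held 9.06% and 3.05% mitochondrial UMIs, and where a named result rests largely on them its value without them is given.

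The levels of the gate genes were fixed in part by the rule, so they describe the barcodes and do not check the label. Summed over the gated barcodes, Flt3 (chromosome 5, 147330741 to 147400489 on the minus strand of mm10) had 160.1 CPM in Kif13b-/- and 154.0 CPM in wild-type barcodes. The other barcodes of the same libraries that passed the depth and mitochondrial limits (5766 and 10810) had 3.19 and 1.86 CPM. Zbtb46, a transcription factor of conventional dendritic cells (chromosome 2, 181387762 to 181459426, minus strand), had 199 and 189 CPM in gated barcodes, against 25.6 and 29.0 CPM in those other barcodes. A Zbtb46 UMI was seen in 71.0% and 71.3% of gated barcodes, but also in 13.8% and 11.8% of smooth muscle barcodes at medians of 6987 and 4060.5 UMIs. A Flt3 UMI was seen in 61.3% and 48.4% of gated barcodes, in 5.63% and 2.25% of macrophages and in 0.392% and 0.537% of smooth muscle barcodes. The smooth muscle barcodes had 3000 CPM or more of Acta2 and Tagln and under 1000 CPM of the C1q genes. They also had to hold fewer than 3 panel UMIs, so their low levels of Flt3, Zbtb46 and Ccr7 were fixed in part by that choice.

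Ccr7 was the panel gene seen in the most barcodes. It had 821 CPM in Kif13b-/- and 746 CPM in wild-type gated barcodes (1108 and 1424 UMIs), with a UMI in 70 of 93 and 143 of 188 barcodes. The values per barcode ran from 0 over a median of 594 to 5126 CPM in the Kif13b-/- library, and from 0 over a median of 470.0 to 4238 CPM in the wild-type library. B cells, which also use CCR7 to reach lymph nodes, had 255 and 247 CPM, macrophages 24.6 and 10.1 CPM, and smooth muscle barcodes 3.48 and 2.27 CPM. Fscn1, an actin-bundling protein of mature dendritic cells, behaved otherwise. Its UMIs were seen in 3 of 93 and 10 of 188 gated barcodes, and a single Kif13b-/- barcode held 77.8% of the 63 Fscn1 UMIs of its library, against 22.1% of 86 UMIs for the highest wild-type barcode.

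The markers of the 2 conventional subsets were spread over fewer barcodes. Cd209a had 149 CPM in Kif13b-/- and 223 CPM in wild-type barcodes, with a UMI in 36 of 93 and 90 of 188. Xcr1, the receptor for the chemokine XCL1, had 37.1 and 69.1 CPM, and Clec9a, which binds the actin of dead cells, had 48.9 and 53.4 CPM. Of the panel only Xcr1 lay past a ratio of 1.5 between the libraries (log2 ratio of Kif13b-/- over wild type -0.89, -1.40 to -0.42). All panel genes together gave a median of 15 UMIs in Kif13b-/- and 11 UMIs in wild-type barcodes. At the edge of the rule, 10 and 17 members held exactly 3 panel UMIs, while 14 and 22 barcodes that met every other condition held 2 and stayed outside.

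Over all gated barcodes the MHC class II genes of the gate were at like levels in both libraries. Cd74, the invariant chain that guides class II molecules to the endosome, had 10825 CPM in Kif13b-/- and 10650 CPM in wild-type barcodes. H2-Aa, the alpha chain of I-A, had 7050.0 and 7271 CPM, H2-Ab1, its beta chain, 6725 and 6551 CPM, and H2-Eb1, the beta chain of I-E, 8224 and 8538 CPM. The log2 ratios of these 4 genes lay between -0.05 and 0.04. Within the cDC2 type described below, of 12 and 37 barcodes, they summed to 22763 CPM in Kif13b-/- and 33227 CPM in wild type. The median log2 ratio there was -0.52, and the lowest was that of H2-Eb1 (-0.77). The sum of the 4 genes ranged over the barcodes from 5766 to 65391 CPM in the Kif13b-/- library and from 5172 to 93051 CPM in the wild-type library, with medians of 29421 and 33891 CPM. Macrophages had medians of 894 and 1419 CPM for the same sum, and B cells 13622 and 12203 CPM.

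The class II genes also varied together from barcode to barcode. Across the 93 Kif13b-/- and 188 wild-type barcodes, Spearman's rho between H2-Aa and H2-Eb1 was 0.902 and 0.849, between H2-Aa and H2-Ab1 0.884 and 0.819, and between H2-Aa and Cd74 0.872 and 0.773. These barcodes share a library and were gated on the sum of the same genes, so the coefficients are given as a description. H2-Oa, a chain of the H2-O molecule that dampens peptide loading and was not used by the gate, had rho of 0.487 and 0.379 with H2-Aa. H2-Eb2, an E beta gene of low level that was also not used, had 0.350 and 0.251. The other 4 genes examined outside the gate were H2-Ob, the partner of H2-Oa, with 0.376 and 0.160, H2-DMa and H2-DMb1, chains of the peptide loader H2-M, with 0.267 and 0.141 and with 0.162 and 0.173, and Ciita, the class II coactivator, with 0.105 and 0.055.

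Class II promoters are known for an X box and a Y box at a fixed distance, which recruit the regulatory factors RFX and NF-Y and through them the coactivator CIITA. In the promoter table of RefSeq genes (build GRCm38.p6), which matched 14 of the 19 class II genes in the lists used here, 4 genes held the letters GCAAC followed by CTGATTGG on the same strand with 10 to 40 other bases between. The pair was sought on both strands in windows of 250 bases before to 50 bases after the start, and was found in 44 of 32851 promoters (0.134%), while CTGATTGG alone was found in 4.10% and GCAAC alone in 35.2%. The 150 bases before the start of each of the 4 genes are shown with both sets of letters in capitals, each from 5′ to 3′ on the strand of the gene.
H2-Aa: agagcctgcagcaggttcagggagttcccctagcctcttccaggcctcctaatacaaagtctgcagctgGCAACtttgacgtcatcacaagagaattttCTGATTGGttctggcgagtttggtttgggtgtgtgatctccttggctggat
H2-Eb1: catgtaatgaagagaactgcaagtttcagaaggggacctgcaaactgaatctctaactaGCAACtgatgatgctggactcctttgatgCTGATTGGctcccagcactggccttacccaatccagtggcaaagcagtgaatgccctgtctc
H2-Eb2: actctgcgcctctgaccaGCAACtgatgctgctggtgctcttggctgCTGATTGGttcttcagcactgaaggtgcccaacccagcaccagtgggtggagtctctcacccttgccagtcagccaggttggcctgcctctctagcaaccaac
H2-Oa: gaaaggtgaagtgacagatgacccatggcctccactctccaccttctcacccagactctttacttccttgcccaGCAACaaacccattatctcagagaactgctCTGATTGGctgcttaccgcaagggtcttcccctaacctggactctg

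These stretches lie on chromosome 17 at chr17:34287824-34287973 (H2-Aa, minus strand), chr17:34305717-34305866 (H2-Eb1, plus strand), chr17:34325525-34325674 (H2-Eb2, plus strand) and chr17:34092229-34092378 (H2-Oa, plus strand). The spacing between the 2 sets of letters was 25 bases in H2-Aa and H2-Oa and 24 bases in H2-Eb1 and H2-Eb2. A match is a description of the letters and not a measured site. H2-Ab1 and Cd74, which also varied with H2-Aa, were not among the matched genes. H2-Ob, H2-DMa and H2-DMb1 were matched and lacked the pair. A link between the letters and the variation of the genes over barcodes was not tested.

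Inside the gate, barcodes were divided into 3 types by 5 genes. The Ccr7 type held a Ccr7 UMI and at least 3 UMIs of Ccr7 and Fscn1 together. Of the others, the cDC1 type held at least 2 UMIs of Xcr1 and Clec9a together and more of these than of Cd209a, the cDC2 type held at least 2 UMIs of Cd209a and more of it than of Xcr1 and Clec9a, and the rest were left unassigned. By this rule the Ccr7 type was the most frequent in both libraries, with 55 of 93 barcodes in Kif13b-/- (59.1%, 48.5 to 69.2) and 115 of 188 in wild type (61.2%, 53.8 to 68.2). The cDC2 type had 12 (12.9%, 6.85 to 21.5) and 37 barcodes (19.7%, 14.3 to 26.1), the cDC1 type 9 (9.68%, 4.52 to 17.6) and 15 (7.98%, 4.53 to 12.8), and 17 (18.3%, 11.02 to 27.6) and 21 (11.2%, 7.05 to 16.6) were unassigned. The ranking rests on the rule. With the Ccr7 type cut at 1000 CPM of Ccr7, it held 35.5% and 28.7% against 22.6% and 32.4% for cDC2, and with types from clusters 36.6% and 26.6% against 50.5% and 59.0%. The cluster names are loose. A cluster of 18 and 20 barcodes counted as the Ccr7 type had a mean log2 fold of -0.40 for the mature genes. A cluster of 10 and 33 barcodes counted as cDC2 had a mean of -0.24 for the cDC2 genes.

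The intervals of the libraries overlapped for each type. A count of UMIs favours the deeper library, so the types were also read with every barcode thinned to 2000 UMIs and 1 UMI in place of each minimum. The Ccr7 type then held 62.4% (51.7 to 72.2) of Kif13b-/- and 52.1% (44.7 to 59.5) of wild-type barcodes. The cDC2 type held 8.60% (3.79 to 16.2) and 13.8% (9.24 to 19.6), and the cDC1 type 7.53% (3.08 to 14.9) and 7.45% (4.13 to 12.2). The order of the libraries for the Ccr7 type turned round when both the depth and the minimums were changed. With 1 library per genotype no difference in a share can be tested.

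**Figure D1:**
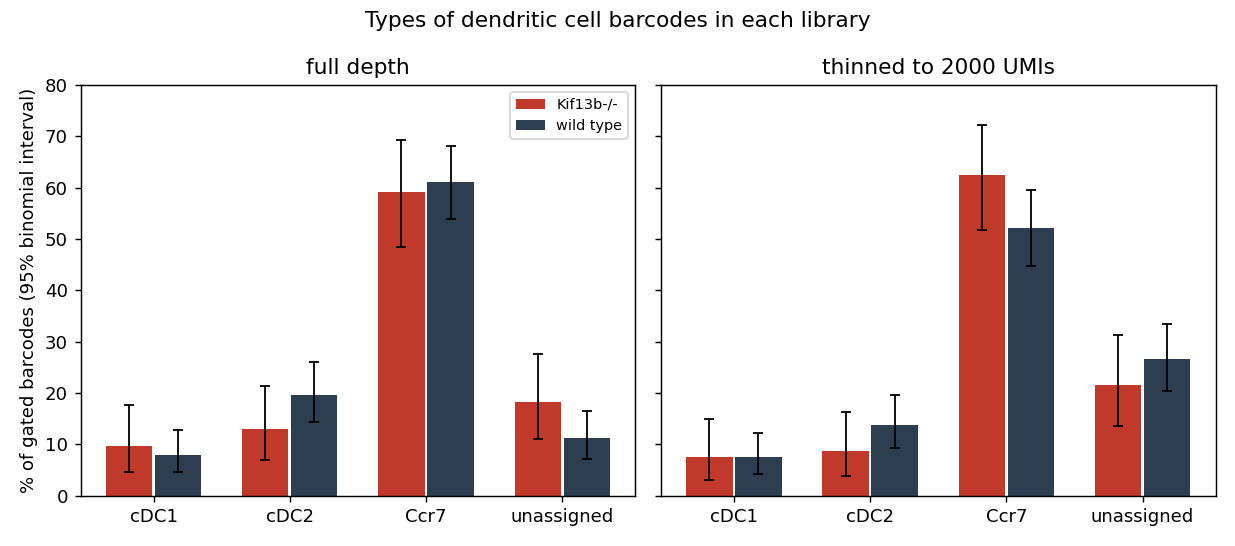
Share of gated barcodes of each type (vertical axis, %) in the Kif13b-/- and wild-type libraries at full depth and with every barcode thinned to 2000 UMIs; bars are shares and lines their 95% binomial intervals. Under the rule used, the Ccr7 type leads in both libraries and both panels, and the intervals of the 2 libraries overlap for every type. The order turns with types from clusters, whose names are loose.

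The types were not exclusive. Of the Ccr7 type, 14 of 55 Kif13b-/- barcodes (25.5%) and 35 of 115 wild-type barcodes (30.4%) also held at least 2 Cd209a UMIs, and 4 of 55 (7.27%) and 10 of 115 (8.70%) at least 2 UMIs of Xcr1 and Clec9a. In the unassigned barcodes Zbtb46 was seen in 13 of 17 and 14 of 21. Stroma-high barcodes were 8 of 17 of the unassigned in Kif13b-/- and 3 of 21 in wild type, against 6 of 55 and 12 of 115 of the Ccr7 type.

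**Figure D2:**
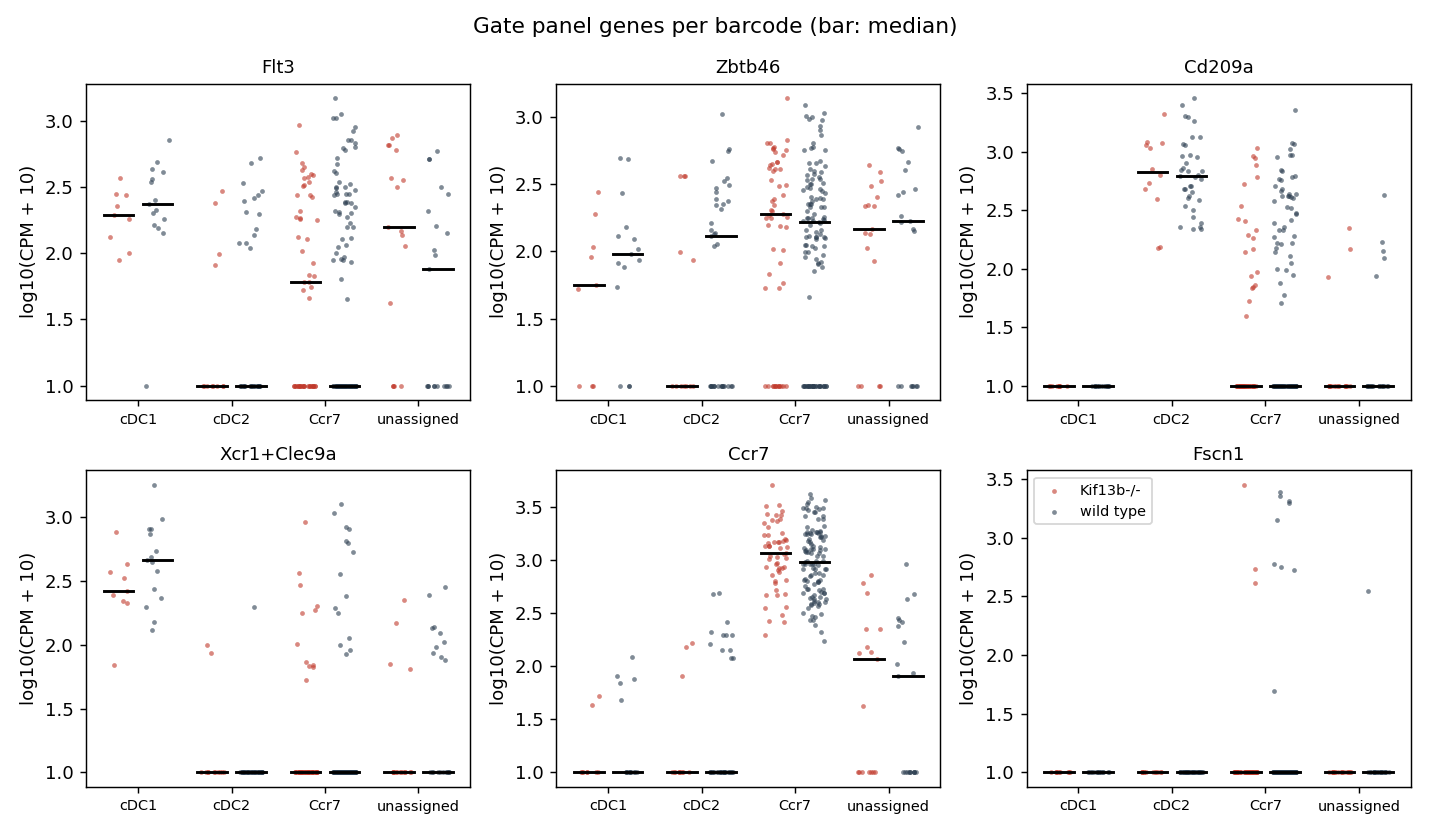
Level of the gate panel genes in each gated barcode (vertical axis, log10 of CPM plus 10), by type, with Kif13b-/- points left of wild-type points and a bar at each median. Ccr7 spans from 188 to 5126 CPM in the Kif13b-/- and from 162 to 4238 CPM in the wild-type Ccr7 type, while Fscn1 is at 0 in all but 3 and 9 of these barcodes.

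The cDC1 type was set apart by genes that had no part in choosing it. A gene was called marked in a type when its level was at least 2-fold above both other types in both libraries, with at least 20 UMIs in the type, and 182 of 3496 genes (5.21%) were marked in the cDC1 type. Of the list of cDC1 genes outside the gate, 11 of the 12 measured were marked: Irf8, Cadm1, Itgae, Naaa, Wdfy4, Cd24a, Ppt1, Ifi205, Rab7b, Gcsam and Septin3. The same barcodes chose the type and give these levels, so they describe it and test nothing.

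Irf8, the transcription factor that cDC1 need to arise, had 472 CPM in Kif13b-/- and 476 CPM in wild-type cDC1, against 49.1 and 83.0 CPM in cDC2 and 183 and 169 CPM in the Ccr7 type. Wdfy4, a factor that cDC1 need to present dead cell antigen on MHC class I, had 506 and 429 CPM against at most 67.0 and 85.5 CPM in the other types. Naaa, an acid amidase, had 593 and 739 CPM, and Cadm1, an adhesion molecule, 501 and 420.2 CPM. Only 9 and 15 barcodes stand behind these levels. Of them 1 and 2 were stroma-high, and 1 and 0 had 2000 CPM or more of 5 genes of plasmacytoid dendritic cells. In the cDC1 type plasmacytoid markers summed to 1379 CPM in Kif13b-/- and 305 CPM in wild type, and fibroblast markers to 1754.5 and 305 CPM. The genes of highest fold in cDC1 besides the gate genes were Gm13822, Lrrc1, Rab7b, Mllt3, Septin3, Sema4f and Naaa. Lrrc1, a scaffold protein of cell polarity, had 149 and 259 CPM in cDC1 against at most 8.18 and 19.5 CPM in the other types.

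Of 15 measured genes of MHC class I presentation, 3 were marked in cDC1: the peptide transporter genes Tap1 and Tap2 and the immunoproteasome gene Psmb9. The list as a whole was not higher there, with sums of 6579 CPM in Kif13b-/- and 6668 CPM in wild-type cDC1, 6999 and 6586 CPM in cDC2, and 6635 and 6947 CPM in the Ccr7 type. Tap1 had 149 CPM in Kif13b-/- and 134 CPM in wild-type cDC1, against 49.1 and 41.5 CPM in cDC2 and 67.0 and 55.4 CPM in the Ccr7 type. Psmb9 had 269.9 and 411 CPM in cDC1, against at most 103 and 88.7 CPM in the others. The class I heavy chain H2-K1 itself ran the other way, with 569 and 909.8 CPM in cDC1 and 1284 and 1395 CPM in the Ccr7 type.

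The cDC2 type was separated less. Only 30 of 3289 genes (0.912%) were marked, and of its own list only Ccr2 of the 13 measured. Ccr2, the receptor that draws monocytes out of the marrow, had 294 CPM in Kif13b-/- and 187 CPM in wild-type cDC2, against at most 81.9 and 71.6 CPM in the other types. Other members were marked elsewhere, with 1 of 7 measured in cDC1 (Clec12a) and 2 of 18 measured in the Ccr7 type (Clec4a4 and Ltb). The list summed to 5511 CPM in Kif13b-/- and 4369.85 CPM in wild-type cDC2, 3806 and 3432 CPM in the Ccr7 type, and 954 and 859 CPM in cDC1. Clec10a, a lectin of cDC2, had 262 and 304 CPM in cDC2 and 148 and 83.0 CPM in the Ccr7 type, against 9.64 and 0 CPM in cDC1. Sirpa had 139 and 118 CPM in cDC2 and 136 and 68.4 CPM in the Ccr7 type, against 9.64 and 0 CPM in cDC1. Irf4, a transcription factor of cDC2, had 57.2 and 65.7 CPM in cDC2 and 81.3 and 60.2 CPM in the Ccr7 type, and no UMI in cDC1 of either library.

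Genes known from monocytes were higher in the cDC2 type than in the other 2 named types. Of the monocyte list 2 of the 4 measured genes were marked in cDC2, Ly6c2 and Ccr2, and the list summed to 3295 CPM in Kif13b-/- and 1525 CPM in wild-type cDC2, against 1282 and 937 CPM in cDC1 and 852 and 918 CPM in the Ccr7 type. The unassigned barcodes had 1886 and 1858 CPM, in wild type above the cDC2 value. At least 2 Ly6c2 UMIs were held by 4 of 12 and 4 of 37 cDC2 barcodes, and by 1 of 17 and 5 of 21 unassigned barcodes. The genes of highest fold besides Cd209a were Mmp13, Eepd1, Dipk1a, Ccr2, Maml3, Ms4a6c and Mefv. Mmp13, a collagenase, had 155 and 124 CPM in cDC2 against at most 20.3 and 14.7 CPM in the other types. Mefv, which encodes the inflammasome sensor pyrin, had 139 and 128 CPM, against at most 56.2 and 51.3 CPM.

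**Figure D3:**
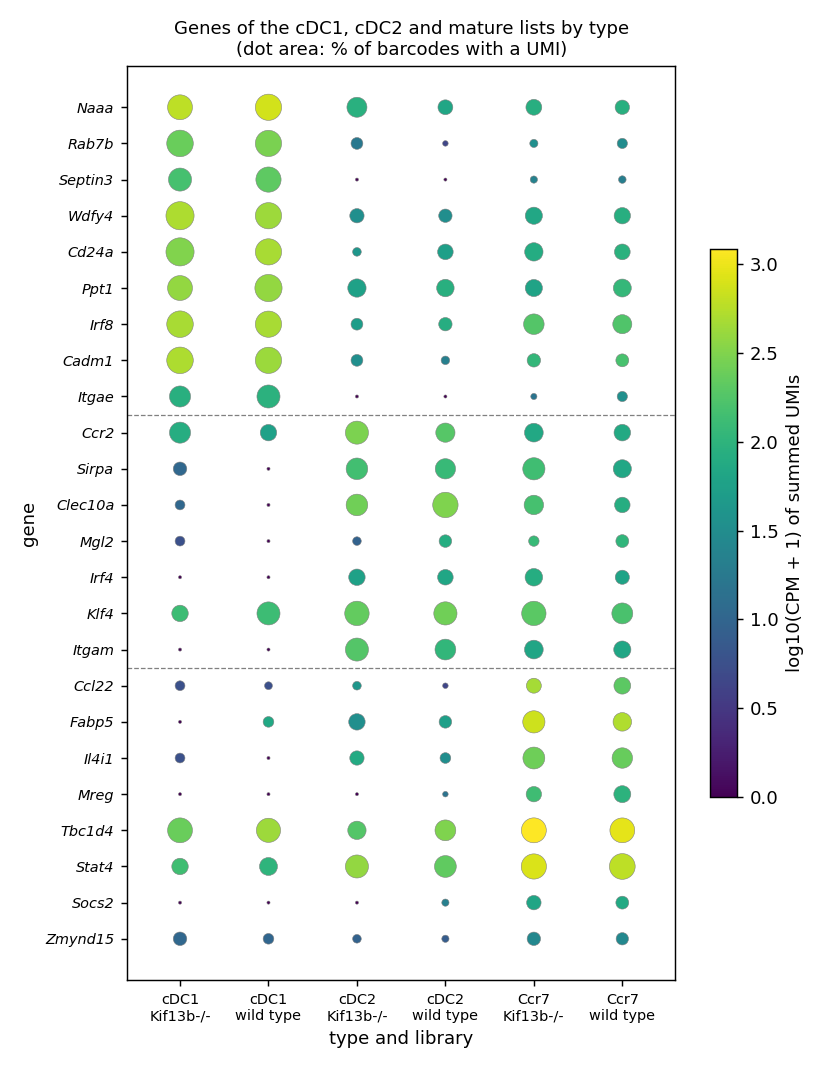
Levels of 24 genes of the cDC1 list (top), the cDC2 list (middle) and the mature list (bottom) in each type and library; colour is log10 of CPM plus 1 of the summed UMIs and dot area the share of barcodes with a UMI. The 9 cDC1 genes at the top are highest in the cDC1 columns of both libraries, whereas Irf4, Sirpa, Clec10a and Itgam are seen in cDC2 and the Ccr7 type.

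The Ccr7 type carried part of the programme of mature dendritic cells. Of 40 measured genes of the mature list, 12 were marked (98 of 7439 genes, 1.32%, were marked in this type): Ccl22, Ccl17, Socs2, Il4i1, Anxa3, Serpinb6b, Stat4, Adcy6, Tbc1d4, Fabp5, Mreg and Zmynd15. Ccl22, a chemokine for T cells with the receptor CCR4, had 471 CPM in Kif13b-/- and 204 CPM in the wild-type Ccr7 type, against at most 40.9 and 4.62 CPM in the other types. Il4i1, an amino acid oxidase, had 253 and 231 CPM, against at most 73.6 and 31.1 CPM. Fabp5, a fatty acid binding protein, had 703 and 515 CPM, against at most 32.7 and 69.3 CPM, and Stat4, which signals for IL-12, had 823 and 594 CPM, against at most 384 and 211 CPM.

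Other mature genes were shared with the other types. Cd83, a surface marker of maturation, had 997 CPM in Kif13b-/- and 751 CPM in wild-type barcodes of the Ccr7 type, 630 and 802 CPM in cDC2, and 1104 and 656 CPM in cDC1. Birc3, an inhibitor of apoptosis, was at 221 and 253 CPM in the Ccr7 type and 328 and 309 CPM in cDC1. Genes of highest fold beyond the list were Adgrg6, an adhesion receptor, with 132 and 143 CPM, Areg, which encodes the growth factor amphiregulin, with 389 and 242 CPM, Ktn1, a kinesin-binding protein of the endoplasmic reticulum, with 566 and 398 CPM, and AA467197, with 499 and 542 CPM. Areg had at most 98.1 and 65.7 CPM in the other types, and Ktn1 at most 123 and 107 CPM.

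Within the gate the sum of the mature list rose with the level of Ccr7, but not every gene of the list did. Barcodes were set in 5 grades by their Ccr7 level (none, under 500, 500 to 1000, 1000 to 2000, and 2000 CPM or more), a division chosen after the data were seen and given without a test. The 5 grades held 23, 22, 15, 21 and 12 Kif13b-/- barcodes, with medians between 12545 and 16869 UMIs, and 45, 55, 34, 35 and 19 wild-type barcodes, with medians between 8497 and 10736.5 UMIs. The mature list, which leaves Ccr7 out, summed to 5918, 8896, 12221, 14308 and 24561 CPM over the rising grades in the Kif13b-/- library. In the wild-type library it summed to 5542, 8978, 10645, 15917 and 23582 CPM. The sum climbed at each grade in both libraries.

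Single genes took different courses. Birc3 did not climb in the Kif13b-/- library, with 264, 278, 201, 190 and 260 CPM over the rising grades. Tbc1d4, a regulator of vesicle transport, climbed at each grade, with 222, 567, 644, 1184 and 2443 CPM in Kif13b-/- and 226, 358, 622, 1268 and 2293 CPM in wild type. Fabp5 stayed under 80 CPM up to a Ccr7 level of 1000 CPM in both libraries, then reached 258 and 705 CPM in the next grade and 3045 and 2047 CPM in the highest. Fscn1 had no UMI below 2000 CPM of Ccr7 in the Kif13b-/- library and 399 CPM above it, and in the wild-type library 112 CPM in the fourth grade and 269 CPM in the fifth. The cytokine Il1b was highest in the middle of the wild-type range, with 1024, 2092, 3422, 3828 and 2228 CPM, and in the Kif13b-/- library had 1377, 1459, 3160, 3372 and 3013 CPM. Cd209a and Ccr7 both count toward the gate, so a barcode with little Ccr7 had to reach the panel minimum through genes such as Cd209a. Cd209a ran downward in the wild-type library, with 365, 244, 168, 161 and 29.2 CPM, and had no steady course in the Kif13b-/- library, with 264, 91.7, 216, 77.7 and 114 CPM.

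**Figure D4:**
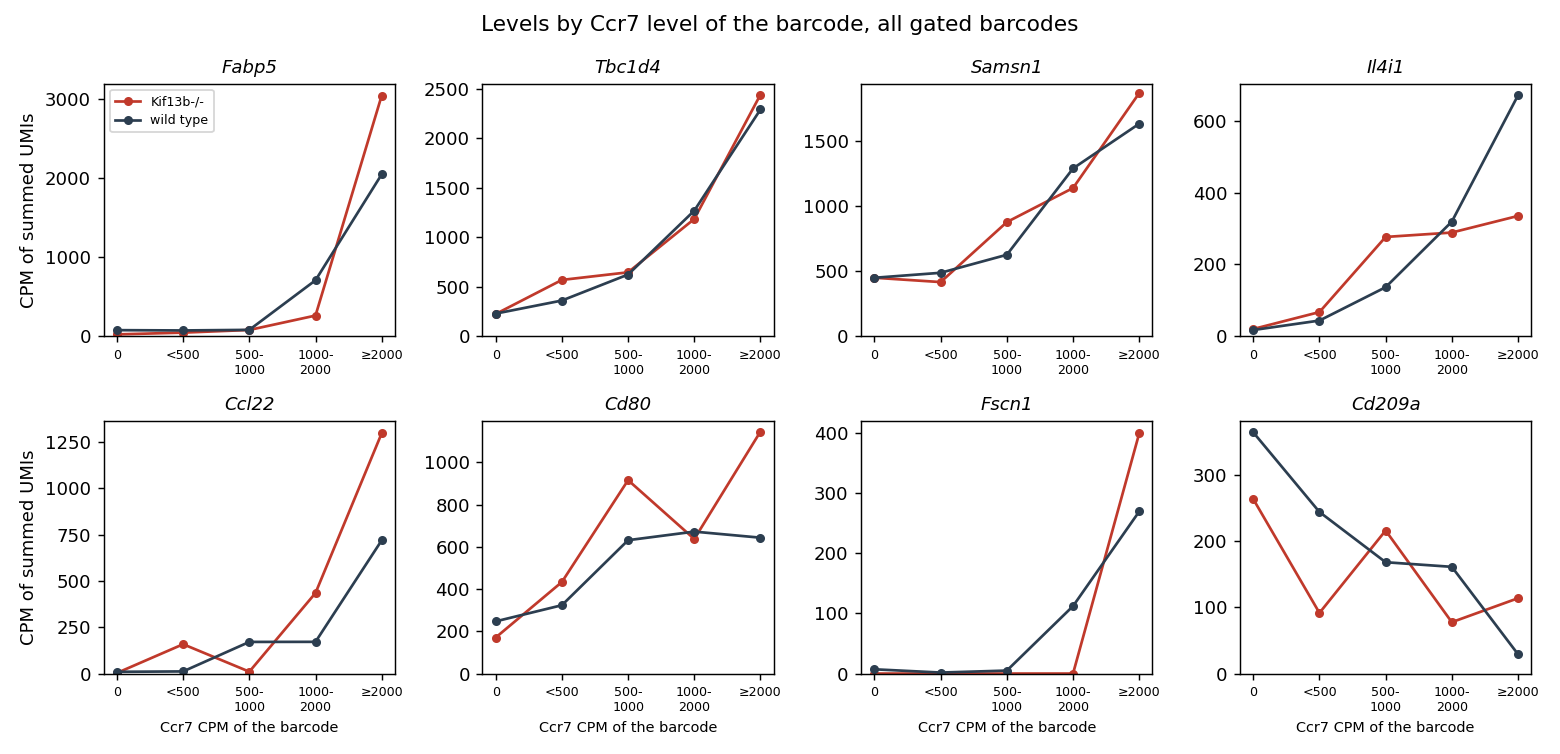
Levels of 8 genes (vertical axes, CPM of summed UMIs) over 5 grades of Ccr7 level per barcode (horizontal axes) in all gated barcodes of the Kif13b-/- and wild-type libraries. Tbc1d4 climbs at each grade in both libraries, and Fabp5 is highest at 2000 CPM of Ccr7 or more, with 3045 CPM in Kif13b-/- and 2047 CPM in wild type.

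Between the libraries, most genes of the gated barcodes lay within a ratio of 1.5. Of 8865 genes with at least 20 UMIs over both libraries, 1110 (12.5%) were at least 1.5-fold higher in Kif13b-/- and 721 (8.13%) at least 1.5-fold lower, and the median log2 ratio was 0.04. Without stroma-high barcodes 929 of 8177 genes (11.4%) were higher and 717 (8.77%) lower. Within the Ccr7 type the counts were 844 (11.3%) and 919 (12.4%) of 7439. The cDC1 type in both libraries, and the cDC2 type and the unassigned in the Kif13b-/- library, have fewer than 20 barcodes, so no count is given for them. In such small numbers a ratio can be that of 1 barcode, and the number of barcodes behind a value is given below.

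Lists that define the cells were counted beside the shares over all measured genes, 12.5% higher and 8.13% lower. The same shares apply to the lists further below. In lists this short, 1 gene past the ratio does not set a list apart from those shares. Of the DC transcription factors and growth factor receptors 0 of 24 were higher and 0 lower, with a median log2 ratio of 0.09. MHC class I presentation had 0 of 19 in either direction and a median of 0.02. Class II loading outside the gate had 1 of 14 higher and 0 lower, with a median of -0.09, the one being Rfx5, a part of the X box factor RFX, with 15 and 14 UMIs. Costimulation and checkpoint genes had 0 of 16 higher and 1 lower, Icosl, the ligand of ICOS, with 23.0 CPM in Kif13b-/- and 39.8 CPM in wild type (log2 ratio -0.78, -1.44 to -0.17). Of the cDC1 list 0 of 13 were higher and 1 lower, Ifi205, an interferon-inducible protein, with 66.7 and 117 CPM (-0.81, -1.18 to -0.46).

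The cDC2 list had 2 of 19 genes higher and 2 lower. Sirpa, the receptor for the "do not eat me" signal CD47, was higher, with 108 CPM in Kif13b-/- and 65.5 CPM in wild-type barcodes (log2 ratio 0.72, 0.37 to 1.08). Its 146 and 125 UMIs came from 51 and 71 barcodes, with at most 6.85% and 4.00% from 1 barcode. The ratio stayed above 0 in all 18 other settings, from 0.53 to 1.21. Cd209d had 21.5 and 5.24 CPM, of which 1 barcode held 16 of 29 UMIs in Kif13b-/- and 5 of 10 UMIs in wild type. Clec4a2 and Esam were lower, with 17.0 and 27.2 CPM and with 3.71 and 9.43 CPM, both with counting intervals that include 0.

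The chemokine list stood lowest of the lists of dendritic cell function. Of 14 measured chemokines 2 were higher and 8 lower, with a median log2 ratio of -0.99. That median was below 0 in all 18 other settings, from -1.11 to -0.31. The list summed to 2104 CPM in Kif13b-/- and 3145 CPM in wild-type gated barcodes. Within the Ccr7 type it summed to 2481 and 4034 CPM, and within the cDC2 type to 3279 and 2330 CPM. The macrophages of the same libraries ran in the same direction at far higher levels, with 21344 and 31391 CPM. The share of macrophage RNA in the values of the gated barcodes was not tested. The C1q genes, which mark macrophages, were at 4.45 and 10.5 CPM (C1qa), 13.3 and 14.7 CPM (C1qb) and 8.15 and 5.76 CPM (C1qc) in the gated barcodes. The gate kept only barcodes under 1000 CPM of these genes, so their low levels were fixed in part by the rule. They do not measure the share of macrophage RNA.

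Ccl5, a chemokine for T cells and monocytes, had the most UMIs of those past the ratio. It had 277 CPM in Kif13b-/- and 578 CPM in wild-type barcodes (log2 ratio -1.06, -1.23 to -0.89), with a UMI in 22 of 93 and 56 of 188 barcodes. With every barcode thinned to 2000 UMIs, a Ccl5 UMI was seen in 14.0% and 23.9%. The higher UMI counts lay in few barcodes, since 4 and 8 of them held at least 50% of all Ccl5 UMIs. Within the Ccr7 type Ccl5 had 381 and 786 CPM and within cDC2 401 and 398 CPM. In macrophages it had 569.7 and 859.5 CPM.

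Other chemokines rested on fewer barcodes. Cxcl10, an interferon-induced chemokine for CXCR3, had 17.0 CPM in Kif13b-/- and 175 CPM in wild-type barcodes (log2 ratio -3.33, -4.04 to -2.75), with a UMI in 15 and 23 barcodes, and 2 wild-type barcodes held at least 50% of its 334 UMIs. Ccl4, an inflammatory chemokine, had 136 and 428 CPM (-1.65, -1.89 to -1.42), with 2 Kif13b-/- and 3 wild-type barcodes holding at least 50% of the UMIs. Cxcl1, which draws neutrophils, had 92.7 and 186 CPM (-1.001, -1.311 to -0.71), with a UMI in 33 and 38 barcodes. When every barcode weighed the same, Cxcl1 had a log2 ratio of 0.17. With every barcode thinned to 2000 UMIs and the gate read again with a panel minimum of 1 UMI, Ccl4 came to 0.084 and Cxcl1 to 0.64, so the direction of both turned under these 2 changes together. Stroma-high barcodes held 40.8% and 7.83% of the Ccl4 UMIs and 48.00% and 31.5% of the Cxcl1 UMIs, and without them Ccl4 had 90.6 and 429 CPM and Cxcl1 54.03 and 139 CPM.

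The 2 CCR4 chemokines of the Ccr7 type ran in opposite directions. Ccl22 had 300.2 CPM in Kif13b-/- and 134 CPM in wild-type barcodes (log2 ratio 1.17, 0.94 to 1.40), and Ccl17 had 52.6 and 104 CPM (-0.98, -1.40 to -0.59). For Ccl22 1 Kif13b-/- barcode held 183 of 405 UMIs, against 43 of 255 for the highest wild-type barcode. For Ccl17 1 wild-type barcode held 111 of 199 UMIs, against 32 of 71 for the highest Kif13b-/- barcode. A Ccl22 UMI was seen in 12.9% and 14.4% of barcodes thinned to 2000 UMIs, and a Ccl17 UMI in 3.23% and 3.72%, so the shares of barcodes lay close together while the sums differed.

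Genes of proliferation were lower as well. Of 15 measured genes 0 were higher and 10 lower, with a median log2 ratio of -0.76, which stayed below 0 in all 18 other settings (-1.52 to -0.57). Hmgb2, a chromatin protein of dividing cells, had 277 CPM in Kif13b-/- and 469 CPM in wild-type barcodes (-0.76, -0.94 to -0.58) and was seen in 76 of 93 and 148 of 188 barcodes. Stmn1, a microtubule regulator, had 31.1 and 81.7 CPM (-1.38, -1.92 to -0.89), and 1 Kif13b-/- barcode held 69.0% of its UMIs. Top2a, a topoisomerase of dividing cells, had 9.64 and 45.1 CPM (-2.18, -3.19 to -1.38), and Mki67 had 30.4 and 49.2 CPM (-0.69, -1.26 to -0.15). At least 2 UMIs of Mki67 and Top2a together were held by 7 of 93 Kif13b-/- barcodes (7.53%, 3.08 to 14.9) and 23 of 188 wild-type barcodes (12.2%, 7.92 to 17.8), and these intervals overlap.

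The sum of the list was lower in each of the 3 named types, but higher in the unassigned barcodes, with 1596 CPM in Kif13b-/- (292 UMIs) and 732 CPM in wild type (128 UMIs). In cDC1 the proliferation list summed to 665 CPM in Kif13b-/- and 3528 CPM in wild type, and 1 of 9 and 6 of 15 cDC1 barcodes held at least 2 UMIs of Mki67 and Top2a (intervals of 0.281 to 48.2% and 16.3 to 67.7%). In the Ccr7 type the list summed to 591 and 984 CPM, and such barcodes were 5 of 55 and 15 of 115. In the cDC2 type it summed to 491 and 823 CPM, with 0 of 12 (an upper bound of 26.5%) and 1 of 37 such barcodes.

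Interferon response genes were divided. Of 18 measured, 2 were higher and 7 lower, with a median log2 ratio of -0.25, which turned above 0 in 2 of 18 other settings (-0.46 to 0.06). Ifit1, an antiviral RNA-binding protein, had 20.01 CPM in Kif13b-/- and 71.8 CPM in wild-type barcodes (-1.82, -2.50 to -1.24), with a UMI in 8 and 15 barcodes, of which 2 in each library held at least 50% of the UMIs. Rsad2, the antiviral enzyme viperin, had 3.71 and 25.7 CPM in 2 and 6 barcodes. Stat2, which relays interferon signals, had 21.5 and 36.7 CPM in 24 and 42 barcodes (-0.76, -1.45 to -0.13). Isg15, a ubiquitin-like protein, had 97.1 and 102 CPM and lay within the ratio. The thinned gate gave Ifit1 a log2 ratio of 0.12.

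**Figure D5:**
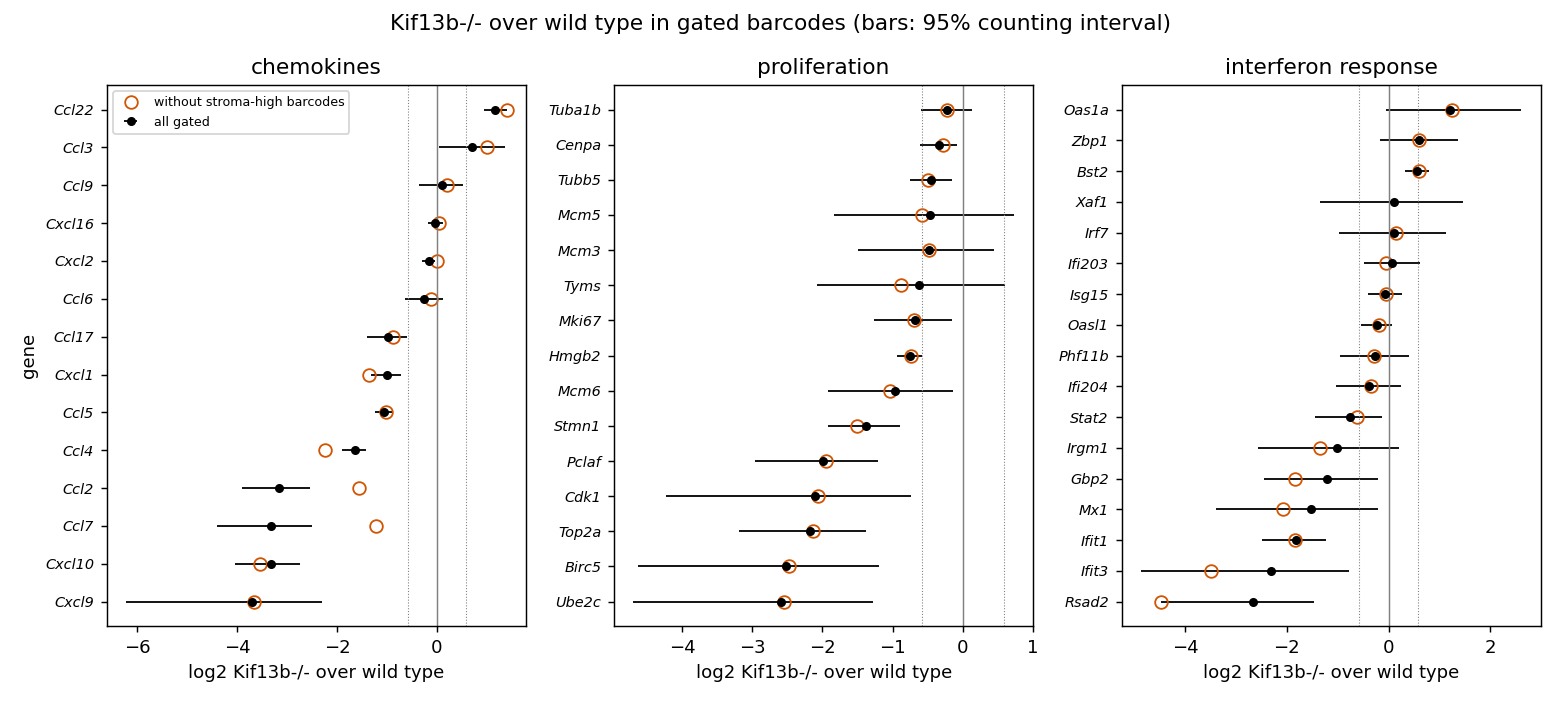
Log2 ratio of Kif13b-/- over wild type (horizontal axes) for measured genes of the chemokine, proliferation and interferon response lists (not every interferon gene is drawn); filled points with 95% counting intervals are all gated barcodes, open points leave out stroma-high barcodes, and dotted lines mark a ratio of 1.5. In the chemokine panel 8 of 14 genes and in the proliferation panel 10 of 15 lie left of the lower dotted line, while Ccl22 lies right of the upper one.

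Cytokines and the mature list showed no common direction. Of 17 measured cytokines 1 was higher and 4 lower, with a median log2 ratio of -0.06. Il10, which restrains dendritic cells, had 7.41 CPM in Kif13b-/- and 29.3 CPM in wild-type barcodes in 6 and 13 barcodes (log2 ratio -1.93, but 1.29 with thinned barcodes), and Osm had 14.1 and 26.2 CPM in 11 and 29 barcodes. Il6 had 42.3 and 71.2 CPM, with 59.6% and 48.5% of its UMIs in stroma-high barcodes, and 19.1 and 39.9 CPM without them. Il23a, a subunit of IL-23, had 51.1 and 12.6 CPM, but all 69 Kif13b-/- UMIs came from 1 barcode. Stroma-high barcodes held 87.5% of its wild-type UMIs, and without them Il23a had 57.4 and 1.71 CPM (69 and 3 UMIs). The mature list had 3 of 40 genes higher and 5 lower with a median of 0.12, among them Mreg, a protein of organelle transport, with 101 and 62.3 CPM (0.69, 0.33 to 1.06) in 18 and 42 barcodes. The mean of the ratios of the 3 types turned Mreg to -0.45 and Il6 to 0.055.

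Migration genes other than chemokines had 2 of 17 genes higher and 0 lower. Ccr1, a receptor for CCL3 and CCL5, had 78.6 CPM in Kif13b-/- and 50.8 CPM in wild-type barcodes (log2 ratio 0.63, 0.22 to 1.04, but -0.25 with thinned barcodes). Of 15 measured pattern recognition genes 1 was higher, Tlr4, with 12 and 11 UMIs, and 1 lower, Myd88, an adaptor of Toll-like receptors, with 24.5 and 37.7 CPM (-0.61, -1.27 to -0.01). Of 18 immediate early and dissociation stress genes 3 were higher and 0 lower. These were Egr1 with 155 and 99.0 CPM, Hspa1a with 164 and 60.2 CPM and Hspa1b with 102 and 28.3 CPM. Stroma-high barcodes held 80.5% of the Hspa1a UMIs in Kif13b-/- and 28.7% in wild type, and without them Hspa1a had 35.7 and 46.7 CPM. Egr1 then had 84.8 and 65.0 CPM (log2 ratio 0.38, -0.016 to 0.78), no longer past the ratio, and Hspa1b 42.4 and 21.7 CPM. Of the 13 mitochondrially encoded genes 2 were higher, mt-Nd2 and mt-Nd3, and the list had a median of 0.35 (0.22 without stroma-high barcodes).

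The study's title points to the uptake of dying cells through MERTK, so these genes were read in the dendritic cells as well. Kif13b had 21.5 CPM in Kif13b-/- (29 UMIs, 14.4 to 30.9) and 26.7 CPM in wild-type barcodes (51 UMIs, 19.9 to 35.1), a log2 ratio of -0.30 (-1.02 to 0.37) that does not leave out 0. Counts of 3' ends need not fall in the part of Kif13b that was targeted, on which the labels are silent, and so do not test the genotype. Macrophages had 48.4 and 59.6 CPM of Kif13b and B cells 78.8 and 96.7 CPM. Of the 6 measured members of the kinesin-3 family, to which Kif13b belongs, 0 were past the ratio, with a median of -0.15. Stroma-high barcodes held 37.9% and 19.6% of the Kif13b UMIs, and without them 2 of 6 were lower, Kif13b itself with 14.96 and 23.4 CPM (-0.62, -1.53 to 0.19) and Kif13a with 14.1 and 22.8 CPM (-0.67, -1.60 to 0.16). Mertk was nearly absent from the gated barcodes, with 1 UMI in Kif13b-/- and 7 UMIs in wild type (0.741 and 3.67 CPM), whereas macrophages had 86.6 and 73.4 CPM.

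Of 21 measured efferocytosis genes 4 were higher and 1 lower, with a median log2 ratio of -0.05. Besides Sirpa, Timd4, a receptor for phosphatidylserine on dying cells, was higher, with 127 CPM in Kif13b-/- and 49.2 CPM in wild-type barcodes (log2 ratio 1.37, 1.00 to 1.75). Its UMIs came from 16 of 93 and 21 of 188 barcodes, 3 and 5 of which held at least 50% of them. Macrophages had 1.08 and 1.07 CPM of Timd4. When the log2 ratios of the 3 types were averaged, Timd4 came to -0.29. Gas6, a bridging ligand of MERTK, had 63.0 and 39.3 CPM, of which stroma-high barcodes held 87.1% and 72.0%, and without them 9.14 and 11.97 CPM. Cd36, a scavenger receptor, was lower, with 11.9 and 36.7 CPM in 8 and 17 barcodes (-1.59, -2.51 to -0.83).

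Of 19 cholesterol and lipid genes 1 was higher and 1 lower. Apoe, the apolipoprotein that macrophages secrete, had 336 CPM in Kif13b-/- and 136 CPM in wild-type barcodes (log2 ratio 1.30, 1.08 to 1.53, but -0.15 with a panel minimum of 300 CPM and 2 UMIs), and 230.2 and 124 CPM without stroma-high barcodes. The highest barcode held 195 of 453 and 115 of 260 Apoe UMIs. Fabp4 had 77.1 and 134 CPM, with 70.2% and 38.7% of its UMIs in stroma-high barcodes, and 25.8 and 89.5 CPM without them.

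Among all eligible genes (946, of which 555 higher and 391 lower) the 12 highest log2 ratios rested on few barcodes. Nrg1, a growth factor of the EGF family, had 89.0 CPM in Kif13b-/- and 4.71 CPM in wild-type barcodes (4.17, 3.27 to 5.401), but 2 Kif13b-/- barcodes held 63 and 54 of its 120 UMIs. Mctp2 (3.03), Grm8 (2.96), Prkca (2.60) and Tex2 (1.91) had 95, 79, 190 and 136 UMIs in 4, 3, 14 and 17 Kif13b-/- barcodes, against 16, 14, 44 and 51 UMIs in 2, 2, 13 and 24 wild-type barcodes. Grm8 and Mctp2 also led a cluster of 17 Kif13b-/- and 40 wild-type barcodes, together with the plasmacytoid genes Ly6d, Siglech and Spib. Grm8 had a value in only 16 of the 18 other settings. The part of plasmacytoid cells in these ratios was not tested further. Sfrp2, Prg4, Kalrn, Pcdh7, Or5m3b and Hspa1b, with ratios of 2.47, 2.28, 1.996, 1.96, 1.93 and 1.84, had between 62.8% and 97.5% of their Kif13b-/- UMIs in stroma-high barcodes. Without these barcodes Sfrp2, a secreted Wnt modulator, had 2.49 and 2.28 CPM and Prg4, the joint lubricant lubricin, 4.99 and 5.70 CPM, while the log2 ratios of Kalrn, Pcdh7, Or5m3b and Hspa1b were 1.33, 1.32, 1.49 and 0.96. Il23a was the twelfth.

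The 12 lowest ratios included genes seen in many barcodes. Txnip, a regulator of thioredoxin and glucose uptake, had 39.3 CPM in Kif13b-/- and 91.7 CPM in wild-type barcodes (-1.21, -1.69 to -0.77), with a UMI in 31 of 93 and 78 of 188, and no barcode held more than 11.3% of the UMIs of its library. Hmox1, the haem-degrading enzyme, had 103 and 217 CPM (-1.07, -1.36 to -0.79) in 29 and 85 barcodes, and Gclm, an enzyme of glutathione synthesis, 48.9 and 99.0 CPM (-1.01, -1.44 to -0.61) in 37 and 70 barcodes. Polg2, a subunit of the mitochondrial DNA polymerase, had 23.0 and 50.3 CPM in 21 and 61 barcodes (-1.11, -1.76 to -0.53). For these 4 genes the ratio was below 0 in all 18 other settings. Without stroma-high barcodes Hmox1 had 66.5 and 218 CPM, a log2 ratio of -1.71.

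The other low ratios were narrower. Tnfsf13os, an antisense RNA at the locus of the cytokine gene Tnfsf13, had 6.67 CPM in Kif13b-/- and 54.0 CPM in wild-type barcodes (-2.94) in 8 and 12 barcodes. Its strand cannot be checked here, so reads of the neighbouring gene may be among its counts. Plet1, a membrane protein, had 18.5 and 51.9 CPM (-1.46) in 10 and 14 barcodes. Rgs5, a pericyte gene, had 28.9 and 131 CPM (-2.16), and 1 wild-type barcode held 181 of its 250 UMIs. Col4a1, a basement membrane collagen, had 21.5 and 52.4 CPM (-1.27), with 82.8% and 73.0% of its UMIs in stroma-high barcodes, and 4.16 and 15.4 CPM without them. The mean of the ratios of the 3 types turned Rgs5 to 0.19 and Col4a1 to 0.33. Cxcl10, Ifit1, Stmn1 and Ccl5 complete the 12.

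Markers of other cell types in the gate were counted by list. Plasmacytoid dendritic cell markers had 6 of 10 genes higher and 1 lower, with a median log2 ratio of 1.14 and sums of 1247 CPM in Kif13b-/- and 958 CPM in wild type. Siglech, the lectin that marks plasmacytoid dendritic cells, had 54.1 and 20.4 CPM, Ccr9 86.7 and 41.9 CPM, Ly6d 37.8 and 15.2 CPM and Spib 34.8 and 14.7 CPM, and 3 of 93 and 2 of 188 barcodes with 2000 CPM or more of 5 such genes were found. Without those barcodes the log2 ratios of Siglech, Ly6d and Spib turned to -0.82, -3.37 and -0.26. Monocyte markers had 3 of 9 higher and 0 lower (median 0.37, 1280.1 and 1098 CPM). Vcan, among the 3, had 84.4% and 87.5% of its UMIs in stroma-high barcodes. Without stroma-high barcodes 2 of 7 monocyte markers were higher and 0 lower (median 0.11, 934 and 896 CPM). Macrophage markers had 2 of 9 higher and 2 lower (median -0.03, 1252 and 1142 CPM).

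The sums of fibroblast, smooth muscle and chondrocyte markers were higher in Kif13b-/- over all gated barcodes and lower there without stroma-high barcodes. Dcn is a fibroblast marker that also defines stroma-high barcodes, so the fall of the fibroblast sum without them was fixed in part. Fibroblast markers had 3 of 8 higher and 0 lower, with sums of 1839 CPM in Kif13b-/- and 1419 CPM in wild type, and of 146 and 164 CPM without stroma-high barcodes. Smooth muscle markers had 2 of 6 higher (157 and 105 CPM), and without stroma-high barcodes 0 of 4 higher and 1 lower (56.5 and 79.2 CPM). Chondrocyte markers had 2 of 4 higher (86.7 and 65.5 CPM), and without these barcodes the 1 measured gene was lower (7.48 and 35.3 CPM). Endothelial markers had 2 of 3 lower (54.1 and 89.1 CPM), and without these barcodes the 1 measured gene was lower (47.4 and 63.8 CPM). NK and ILC markers had 0 of 3 past the ratio (522 and 582 CPM), and of the B and plasma cell list 1 gene was measured, Ighm, with 41.5 and 22.0 CPM. T cell markers summed to 28.9 and 13.6 CPM, neutrophil markers to 6.67 and 5.76 CPM and adipocyte and glial markers to 8.15 and 3.67 CPM, with 0 measured genes in each. At least 2 UMIs of Cd3e, Cd3d and Cd3g were held by 1 Kif13b-/- and 0 wild-type barcodes. The part of these other cells in the differences between the libraries was not tested beyond the values without stroma-high barcodes and without barcodes high in plasmacytoid genes.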

How the data were processed

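UMI counts of 1 aorta library per genotype were taken from the deposited gene-by-barcode count matrices, made with Cell Ranger 8.0.1 per the file headers and mm10 per the submitters' processing notes. Their gene annotation is not stated in labels or headers. Unused per-sample columns were 0. GENCODE M21 (mm10) held 31961 of 33696 features (94.9%) and gave the coordinates. Barcodes were gated and divided into types as the report states, and UMIs were summed per library and population. Ratios of the libraries were taken on the log2 scale after adding 0.5 UMIs. Intervals (95%) are exact Poisson, exact for 2 counts, or Clopper-Pearson. PCR is covered by UMIs, and differences between animals are not. No p-value was computed, since the libraries are 1 per genotype. The calculation was checked on simulated counts.

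Macrophages had 1000 CPM or more of C1q genes, and B cells at least 3 UMIs of Cd79a, Cd79b and Ms4a1. Scrublet's automatic threshold marked 2 (0.0341%) Kif13b-/- and 0 wild-type barcodes and had not worked; doublets were kept in the main values and removed as an alternative at 0.8% per 1000 barcodes (275 and 968 barcodes, of which 2 and 11 gated). Named genes were the gate genes, Kif13b, Mertk, up to 4 members past the ratio per list (most UMIs first), the 12 highest and 12 lowest ratios among genes with at least 50 UMIs, 50 CPM in the higher library and an interval without 0, and 8 genes of highest fold per type. Ribosomal, mitochondrial, immunoglobulin, sex-linked, Gm and Rik genes, and genes over 10 times higher in other barcodes, were left out of the ratio rule. Members, the 33 lists and alternatives were chosen with earlier results of these data known. Genes shown to compare types, and the remaining members of a list in the figures, were chosen after their values were seen. Some members of the lists are counted but not reported here by name. Python 3.11.15, numpy 2.4.6, scipy 1.17.1, pandas 2.3.3, scanpy 1.11.5 and matplotlib 3.10.9 were used.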

Additional observations from a re-analysis of the deposited data

Results flagged for a closer look

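The log2 ratio of Ccl4, an inflammatory chemokine, between the libraries went opposite ways in 2 types. In the cDC2 type Ccl4 had 458 CPM in Kif13b-/- (56 UMIs) and 214 CPM in wild type (62 UMIs), a log2 ratio of 1.10. In the Ccr7 type it had 63.4 CPM in Kif13b-/- (53 UMIs) and 584 CPM in wild type (717 UMIs), a log2 ratio of -3.19. The difference between the types was not tested, since there is 1 library per genotype. Macrophages had 5068 and 8228 CPM of Ccl4. The cDC2 type, of 12 Kif13b-/- and 37 wild-type barcodes, also differed in other lists: mitochondrially encoded genes summed to 46205 and 23554 CPM (median log2 ratio 0.84), fibroblast markers to 2363 and 681 CPM, monocyte markers to 3295 and 1525 CPM and macrophage markers to 1725 and 1061 CPM. Over all gated barcodes a Ccl4 UMI was seen in 24 Kif13b-/- and 54 wild-type barcodes, and the highest barcode held 26.1% and 26.7% of the UMIs. With every barcode thinned to 2000 UMIs and a panel minimum of 1 UMI, the log2 ratio over all gated barcodes was 0.084. Stroma-high barcodes held 40.8% of the Kif13b-/- and 7.83% of the wild-type Ccl4 UMIs. Their part in the result was not tested.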

How the results depend on the processing

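Besides the values reported, 18 other settings were run, 14 planned and 4 added after the data were seen. No paired analysis was possible because each genotype has 1 library, and no replicate could be left out for the same reason. Of the values that answer a comparison, 159 stayed within their counting interval or, for counts of genes, within 1.5 times, and 21 did not. These 21 follow, with the cause not tested.

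Shares of the gate moved to 1.37% in wild type with at least 5 panel UMIs, to 1.95% in Kif13b-/- and 3.28% in wild type with at least 5000 UMIs, to 2.39% in Kif13b-/- with at most 10% mitochondrial UMIs, and to 2.03% in Kif13b-/- with every barcode thinned to 2000 UMIs and a panel minimum of 1 UMI (called thinning below). The Ccr7 type moved to 69.5% in wild type with at least 5 panel UMIs. With the Ccr7 type cut at 1000 CPM of Ccr7, it held 35.5% and 28.7% and cDC2 22.6% and 32.4%, so cDC2 led in wild type. Types taken from Leiden clusters by the highest marker mean gave cDC2 50.5% and 59.0%, the Ccr7 type 36.6% and 26.6%, and cDC1 14.4% in wild type, so cDC2 led in both libraries. These names are loose. Of the clusters counted as cDC2, that of 17 and 40 barcodes was led by Grm8, Mctp2, Ly6d, Siglech and Spib. That of 10 and 33 barcodes, also counted as cDC2, was led by Acod1, Apoe and Clec4e with a cDC2 mean of -0.24. Of those counted as the Ccr7 type, that of 18 and 20 barcodes was led by Pcolce, Prg4 and Dcn with a mature mean of -0.40. Genes higher and lower numbered 3739 and 3998 with 1 UMI or more, 234 and 119 with 100 UMIs or more, 652 higher with thinning and 1095 lower as the mean of the types.

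Log2 ratios past 1.5-fold that turned were, with thinning, Or5m3b -0.31, Ifit1 0.12, Esam 0.40, Il6 0.088, Il10 1.29, Ccl4 0.084, Cxcl1 0.64, Ccr1 -0.25, Tlr4 -0.59, Adgre1 0.43, Fcgr1 -1.53 and Myh11 -0.58. With each barcode weighing the same they were Il6 0.64, Cxcl1 0.17, Tlr4 -0.26 and Myh11 -0.037. As the mean of the types they were the endothelial list and Pecam1 0.79, Rgs5 0.19, Col4a1 0.33, Mreg -0.45, Il6 0.055, Timd4 -0.29, Fabp4 0.73, Ly6d -0.27 and Cytl1 -0.72. Without stroma-high barcodes they were Prg4 and Acta2 -0.15, Gas6 -0.36, Hspa1a -0.38, Myh11 -0.40, Lmod1 -0.56, Dcn -0.21, Serpinf1 -0.30, Sox9 -1.96 and Cytl1 -0.59. Without barcodes high in plasmacytoid genes they were Siglech -0.82, Ly6d -3.37 and Spib -0.26. With at least 10000 CPM of class II genes they were Gas6 -0.11, Hspa1a -0.43 and Vcan -0.75. With a panel minimum of 300 CPM and 2 UMIs they were Apoe -0.15, Hspa1a -0.078, Vcan -0.15 and Myh11 -0.52. With 5000 UMIs they were Serpinf1 -0.059 and Cytl1 -0.65, with 10% mitochondrial UMIs Serpinf1 -0.089, and with 5 panel UMIs Vcan -0.043. The number of barcodes limits every ratio.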
